A study of Rattus norvegicus with 70 samples.

Results

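Visceral adipose tissue (VAT) of sham-exposed rats was compared between odd-numbered rats, labelled male, and even-numbered rats, labelled female. The members were the 12 sham VAT libraries of a series of 70, chosen by the number in each library's title: rats 1, 3, 5, 7, 9 and 11 formed the male group (n = 6) and rats 2, 4, 6, 8, 10 and 12 the female group (n = 6). All 12 were adolescent Sprague-Dawley rats that received the sham treatment of a nose-only inhalation study of PCB 52, a polychlorinated biphenyl. They carried no transgene and no allele is named in the labels. The labels' protocols give arrival at 28 days of age, random assignment to sham or PCB 52 at 39 days (males) or 42 days (females), and inhalation for 4 h a day over 28 days. The study asked how PCB 52 changed gene expression in brown (BAT), subcutaneous (SAT) and visceral fat of both sexes. The labels do not say which visceral pad was dissected. Sex, age, the separately deposited table and any difference in the position of the pad cannot be told apart in this comparison.

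White adipose tissue stores triglyceride in adipocytes, releases it by lipolysis and, in rodents, makes part of its fatty acids from glucose by de novo lipogenesis. Visceral pads lie in the abdomen around the gut, the kidneys and the reproductive tract, and they are lined by mesothelium. Adipocyte precursors of different pads keep different sets of Hox and other developmental transcription factors, which record where along the body axis the pad formed.

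Gene expression was measured as read counts per gene. The analysis was limited to the 14712 genes assigned to numbered chromosomes, so sex-linked genes did not enter the tests. Totals over these genes were between 6236898 and 8138215 in the male libraries and between 6265351 and 7573102 in the female libraries, so that 3 counts in 1 library correspond to at most 0.528 CPM (the count relative to the library's total, after TMM scaling between the libraries). Levels below are CPM after TMM scaling. They are not divided by gene length, so a level is compared between groups and not between genes. Reads on 3 Y-linked genes, used only to check the labels, numbered 876 to 1128 in every male library and 0 to 27 in the female libraries. The adipocyte gene Adipoq was between 4089 and 7956 CPM in the 12 libraries.

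Some libraries stood apart from their group. The marker levels in this paragraph, the levels of genes under the filter and the summed list levels were scaled over all genes on numbered chromosomes, and the other levels over the genes tested. The library of male rat 11 held 357 CPM of Crisp1, 882 CPM of Lcn5 and 130 CPM of Svs4, genes of the epididymis and seminal vesicle. Crisp1 and Svs4 were at 0 in the other 11 libraries, and Lcn5 was at 0 to 23.1 CPM in the other males and at 0 in every female. Female rats 4 and 8 held 383 and 238 CPM of the brown-fat gene Ucp1, against at most 13.8 CPM (rat 6) in the other females and 0 in every male. Female rats 8 and 10 held 46.5 and 82.1 CPM of the B-cell gene Cd79b, which was at most 1.36 CPM in the male libraries. Female rat 8 also held 178 CPM of the muscle gene Ckm. The first principal component of log2 CPM held 34.5% of the variance and separated the groups, with male rat 1 nearest to the females.

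**Figure D1:**
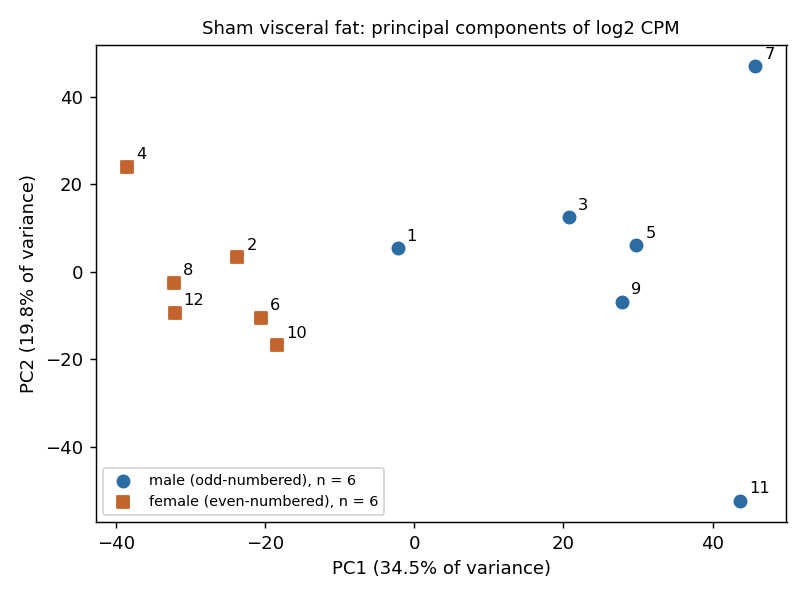
Principal components of log2 CPM in the 12 sham VAT libraries; each point is 1 library with its rat number, PC1 (34.5% of the variance) is on the x axis and PC2 (19.8%) on the y axis, both in arbitrary units. Male libraries (circles) lie to the right of all female libraries (squares), male rat 1 is nearest to them, and male rats 7 and 11 lie at opposite ends of PC2.

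Of 10836 genes tested with edgeR's quasi-likelihood test, 1237 (11.4%) differed between the groups at a Benjamini-Hochberg adjusted p under 0.05; such genes are referred to as called. Of these, 671 (6.19% of the genes tested) were higher in male and 566 (5.22%) were higher in female libraries, and 478 differed by at least 2-fold. The counts of called genes in lists below are read beside these shares. Values of the 6 males did not overlap those of the 6 females in 638 genes (5.89%); males were above in 348 (3.21%) and females in 290 (2.68%). Fold differences are given as log2 of male over female with their standard error, so that positive values mean higher in males; the median over all tested genes was 0.02. The labels do not say more of the replicates than that they are separate rats. The p-values set the difference between the groups against the spread among the libraries within each group. The count depended on single libraries: it was 797 without male rat 5, 819 without female rat 8, 819 without female rat 12 and 1571 without male rat 1, 528 without female rats 4 and 8, and 651 without female rats 8 and 10. In bulk tissue, fewer cells of a type and less RNA per cell cannot be told apart.

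**Figure D2:**
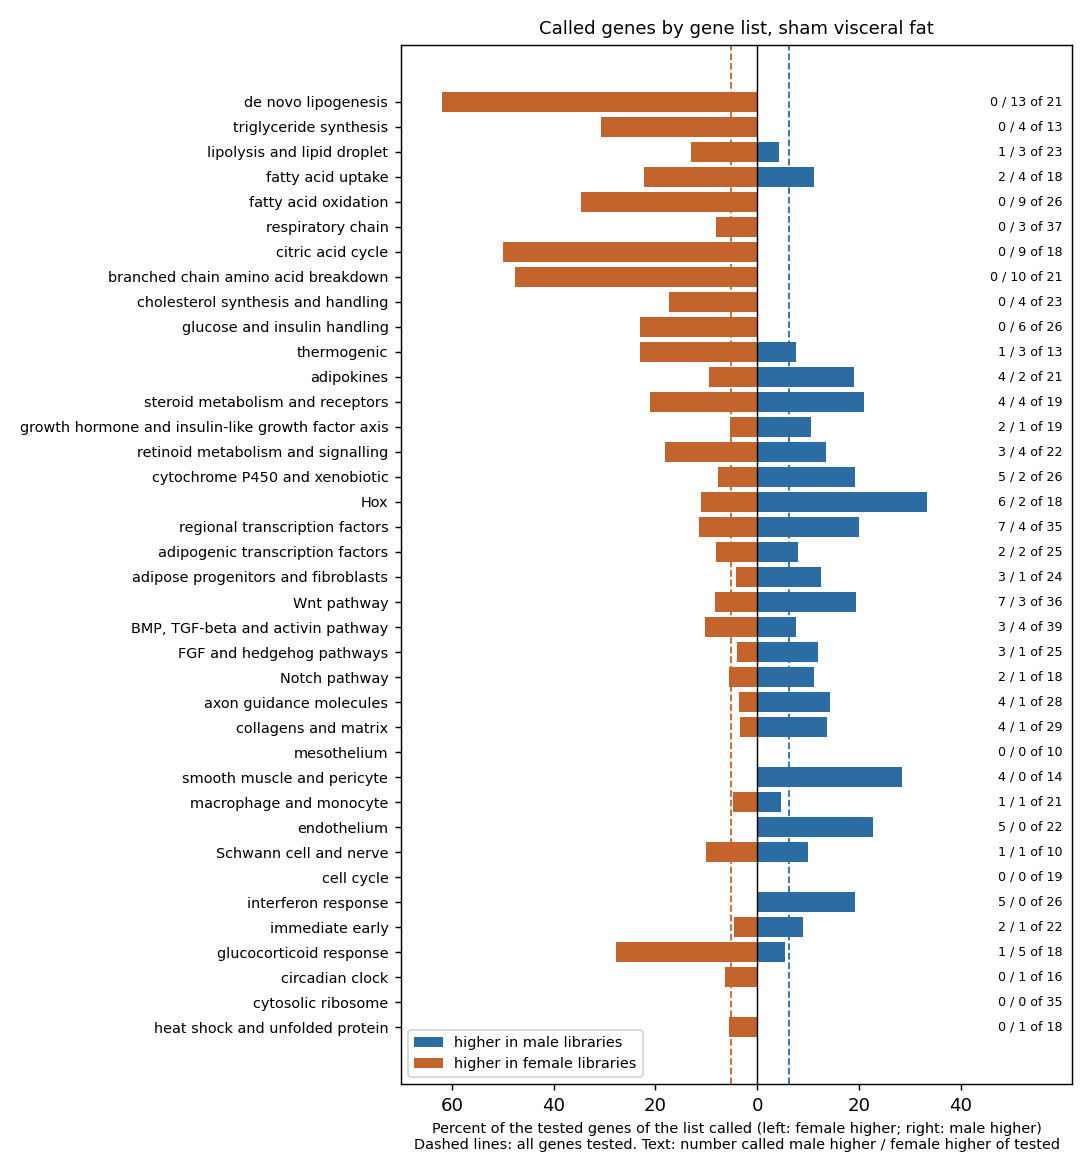
Percent of the tested genes of each of 38 gene lists that were called in sham VAT, higher in females to the left and higher in males to the right; dashed lines mark the same percent over all genes tested (5.22% and 6.19%), and the text at the right gives the numbers. Calls in lists of fat synthesis, the citric acid cycle and branched chain amino acid breakdown lie on the female side, and calls in the smooth muscle, endothelium and interferon lists lie on the male side.

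Genes of fat synthesis were higher in the female libraries. De novo lipogenesis turns cytosolic citrate into fatty acids, and 13 of the 21 tested genes of that list were called higher in females and none higher in males; their median log2 difference was -1.46. Fasn, the fatty acid synthase, was at 768, 1946 and 3257 CPM in males (lowest, median, highest) and at 5467, 12890 and 24960 CPM in females. No male reached the lowest female. The log2 difference of Fasn was -2.78 ± 0.39 (SE, adjusted p = 0.00111). Me1, the cytosolic malic enzyme that supplies NADPH, was at 161, 180.5 and 234 CPM in males and at 342, 1761 and 4057 CPM in females. The males were close to each other, while females spread over a wide range with rat 10 lowest and rat 2 highest. Its log2 difference was -3.35 ± 0.44 (adjusted p = 0.000736).

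The steps upstream and downstream of Fasn followed the same order. Acly, which splits citrate to acetyl-CoA, was at 301 to 554 CPM in males and 742 to 6296 CPM in females, with a log2 difference of -2.24 ± 0.43 (adjusted p = 0.00576). Female rat 2 was far above the other females for Acly, and the difference was -1.60 without that library. Acaca, the acetyl-CoA carboxylase, was at 144 to 524 CPM in males and 579 to 2589 CPM in females (log2 -1.96 ± 0.36, adjusted p = 0.0044). Acss2, which activates acetate, was at 102 to 187 CPM in males and 194 to 439 CPM in females (log2 -1.12 ± 0.20). These genes did not overlap between the groups. Scd, the stearoyl-CoA desaturase, did overlap, with 3701 to 13020 CPM in males and 8959 to 44470 CPM in females (log2 -1.76 ± 0.38, adjusted p = 0.0112). Female rat 10 was the lowest female for Me1, Fasn, Acly and Scd. Srebf1, which encodes a transcription factor of lipogenic genes, had 380 to 979 CPM in males and 631 to 1198 CPM in females, and its difference did not pass the test (log2 -0.41 ± 0.22, adjusted p = 0.245). The count of called lipogenic genes was 10 without female rat 8 or 12 or male rat 3, 5, 7 or 9, from 11 to 13 without any other single library, and 11 both without female rats 4 and 8 and without female rats 8 and 10.

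The promoters of the called lipogenic genes were read from the RefSeq promoter table (build GRCr8), which holds 11 of the 13. Fasn and Acaca are the called genes it lacks. The letters CCAAT, the core of the site of the factor NF-Y, were searched on both strands (as CCAAT or ATTGG) in the 120 bases before the annotated start. They were found in 5 of the 11, against 19.9% of all 33469 promoters in the table, and in 7 of the 11 against 34.0% when the 250 bases before the start were searched. The first listed promoter was read for each of the 11, whereas the percentages count every promoter of every gene. Lipogenic genes that were not called, and other genes expressed in VAT, were not read separately. The shares therefore cannot be tied to the difference between the groups. The 5 sequences that hold the letters within 120 bases are shown 5′ to 3′ on the gene's strand, with the match in capitals. A match describes letters and is not a binding site.
Acss2 (chr3:164464583-164464702, + strand, match starting at base -73): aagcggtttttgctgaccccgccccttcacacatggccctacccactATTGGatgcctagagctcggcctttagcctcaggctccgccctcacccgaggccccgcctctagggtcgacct
Pgd (chr5:164882030-164882149, - strand, match at -31): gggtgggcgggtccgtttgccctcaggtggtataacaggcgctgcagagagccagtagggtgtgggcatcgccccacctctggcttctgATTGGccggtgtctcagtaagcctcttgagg
Acly (chr10:85963632-85963751, - strand, match at -71): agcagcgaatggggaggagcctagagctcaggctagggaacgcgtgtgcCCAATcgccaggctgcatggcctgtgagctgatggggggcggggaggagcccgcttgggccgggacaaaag
Acacb (chr12:48138215-48138334, - strand, match at -72): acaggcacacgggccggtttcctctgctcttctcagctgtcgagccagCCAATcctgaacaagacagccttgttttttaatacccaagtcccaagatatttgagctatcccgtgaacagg
Pnpla3 (chr7:117173408-117173527, + strand, matches at -111 and -64): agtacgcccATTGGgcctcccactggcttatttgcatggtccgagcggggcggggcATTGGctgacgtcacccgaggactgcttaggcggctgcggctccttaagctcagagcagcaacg

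**Figure D3:**
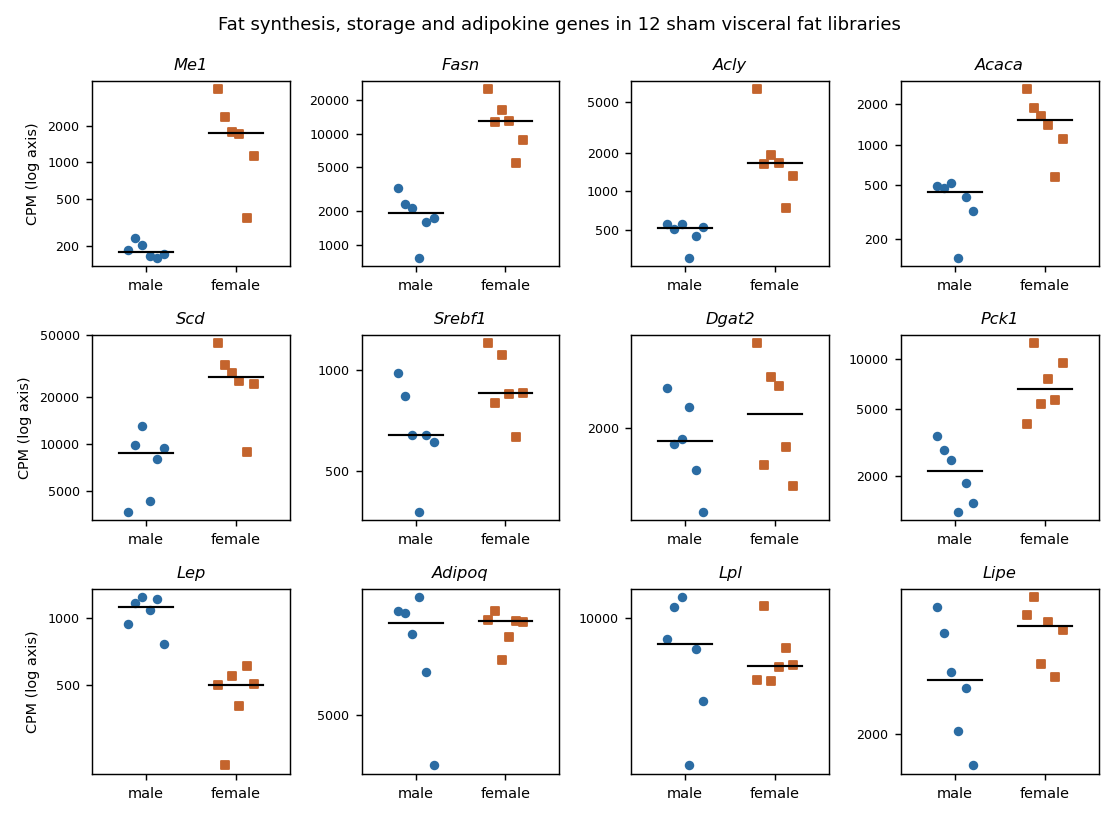
CPM on log axes of 12 genes of fat synthesis, storage, lipolysis and adipokines in sham VAT; each point is 1 library (male circles, female squares, n = 6 each) and the line is the group's median. Me1, Fasn, Acly, Acaca and Pck1 do not overlap between the groups and are higher in females, Lep does not overlap and is higher in males, and Srebf1, Dgat2, Adipoq, Lpl and Lipe overlap.

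Triglyceride assembly showed fewer differences. Of 13 tested genes, 4 were called, all higher in females (5.22% over all genes), with a list median of -0.50. Lpin1, a phosphatidate phosphatase, was at 112, 257 and 421 CPM in males and 518, 870 and 1422 CPM in females (log2 -1.82 ± 0.33, adjusted p = 0.00421). Pck1, which feeds glycerol synthesis, was at 1226 to 3464 CPM in males and 4114 to 12410 CPM in females (log2 -1.75 ± 0.32, adjusted p = 0.00453). Neither gene overlapped between the groups. Dgat2, which adds the last fatty acid, had 1228 to 2528 CPM in males and 1424 to 3286 CPM in females and did not pass the test (log2 -0.24 ± 0.24, adjusted p = 0.539). The list had 2 genes called higher in females without male rat 3, 5 or 9 or without female rats 4 and 8, and 1 called higher in males without female rat 4.

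For fatty acid uptake, 4 of 18 tested genes were called higher in females (5.22% over all genes) and 2 higher in males (6.19%). The former count was 2 without female rat 8 or 12 or male rat 5, 9 or 11. The latter count was 0 without female rat 2, 4, 6, 8 or 12 or male rat 5 or 9, and 1 without female rat 10 or male rat 1, 3 or 11. Angptl8, a regulator of lipoprotein lipase, was at 6.34, 22.3 and 57.7 CPM in males and 137, 164 and 224 CPM in females (log2 -2.71 ± 0.43, adjusted p = 0.00239). Slc27a1, a fatty acid transporter, was at 133 to 280 CPM in males and 258 to 1251 CPM in females (log2 -1.95 ± 0.32, adjusted p = 0.00255). Only the first of these was free of overlap. Lpl itself, the lipase that releases fatty acids from lipoproteins, was at 6255 to 10680 CPM in males and 8178 to 10390 CPM in females, a log2 difference of 0.01 ± 0.16 (adjusted p = 0.976). Of 23 tested genes of lipolysis and the lipid droplet, 3 were called higher in females (1 without female rats 4 and 8) and 1 higher in males. The male share of this list was below that of all genes. The one higher in males was Npr3, the clearance receptor of natriuretic peptides, with 141 to 314 CPM in males and 57.3 to 106 CPM in females (log2 1.46 ± 0.22, adjusted p = 0.0016). Abhd5, the co-activator of adipose triglyceride lipase, was at 81.8 to 114 CPM in males and 134 to 269 CPM in females (log2 -0.88 ± 0.18). The lipases themselves did not pass the test: Pnpla2 had a log2 difference of -0.61 ± 0.23 (adjusted p = 0.0985) and Lipe of -0.32 ± 0.20 (adjusted p = 0.337). Adrb3, the adipocyte beta-adrenergic receptor, had a log2 difference of -0.35 ± 0.40 (adjusted p = 0.61), with male values from 30.3 to 333 CPM.

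Genes of fatty acid oxidation and the citric acid cycle were also higher in females. In the oxidation list, 9 of 26 tested genes were called higher in females and none higher in males (median -0.60, or -0.39 without female rat 4). Ehhadh, a peroxisomal oxidation enzyme, was at 28.0, 35.8 and 83.2 CPM in males and 93.0, 120 and 210.5 CPM in females; the groups did not overlap, and the highest male was rat 1 (log2 -1.66 ± 0.28, adjusted p = 0.00288). Ppargc1a, a co-activator of mitochondrial genes, was at 0.900 to 1.90 CPM in males and 3.65 to 21.5 CPM in females, with rat 4 highest (log2 -2.44 ± 0.49, adjusted p = 0.00701). Ucp3, a mitochondrial carrier, was at 3.03 to 12.7 CPM in males and 13.8 to 39.2 CPM in females (log2 -2.09 ± 0.35).

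In the citric acid cycle list, 9 of 18 tested genes were called higher in females (median -0.66). Pc, the pyruvate carboxylase, was at 661, 964 and 1682 CPM in males and 1975, 3283 and 5227 CPM in females (log2 -1.67 ± 0.26, adjusted p = 0.00223). Pdhb, a subunit of pyruvate dehydrogenase, was at 134 to 268.5 CPM in males and 272 to 899 CPM in females (log2 -1.44 ± 0.28). Of the 21 tested genes of branched chain amino acid breakdown, 10 were called higher in females (median -0.59), among them Mccc1 of leucine breakdown (log2 -1.07 ± 0.20) and Dbt of the branched chain keto acid dehydrogenase (log2 -0.96 ± 0.19). Mccc1 was at 28.7 to 70.2 CPM in males and 74.9 to 135 CPM in females, and Dbt at 79.4 to 179 CPM and 183 to 263 CPM, again with male rat 1 the highest male. Only 3 of 37 respiratory chain genes were called (8.11%, against 11.4% of all genes), all higher in females, with Ndufs1 of complex I at -1.12 ± 0.21. The citric acid cycle and amino acid lists had 3 called genes each without female rats 4 and 8, which held most of the Ucp1 reads, and the oxidation list had 5. The part of the tissue that held Ucp1 was not tested; the medians without those libraries were -0.34 for oxidation, -0.46 for the citric acid cycle and -0.45 for amino acid breakdown. Of single libraries, the amino acid list had 5 genes called higher in females without female rat 4 or male rat 3, 5 or 9, 6 without female rat 8, and 1 called higher in males without male rat 1, and the respiratory chain list had 11 without male rat 7 and 1 without female rat 4 or 8 or male rat 3, 5 or 9. Without female rats 8 and 10 the amino acid list had 5.

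Glycogen and glucose genes differed in part. Gys2, a glycogen synthase, was at 8.07, 11.7 and 22.98 CPM in males and 47.9, 129.5 and 338 CPM in females (log2 -3.57 ± 0.41, adjusted p = 0.000313). Every female was above the highest male, rat 1. Gbe1, the glycogen branching enzyme, was at 37.8 to 62.3 CPM in males and 66.1 to 168 CPM in females (log2 -1.21 ± 0.21), and Pygl, a glycogen phosphorylase, had a log2 difference of -1.35 ± 0.25. In the list of glucose and insulin handling, 6 of 26 tested genes were called, all higher in females, and 3 without female rat 2 or 4 or male rat 5 or 9 or without female rats 4 and 8; without male rat 7, 1 was called higher in males. Slc2a4, the insulin-responsive glucose transporter, did not pass the test (log2 -0.66 ± 0.28, adjusted p = 0.145), nor did Irs1 (log2 0.01 ± 0.28, adjusted p = 0.982). Grb14, an adaptor that binds the insulin receptor and inhibits it, was at 59.7, 88.4 and 124 CPM in males and 5.57, 8.09 and 18.9 CPM in females (log2 3.10 ± 0.32, adjusted p = 0.000211).

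Among adipokines, 4 of 21 tested genes were called higher in males (6.19% over all genes) and 2 higher in females (5.22%). The latter count was 1 without female rat 2, 4, 6, 8 or 12 or male rat 3, 5, 9 or 11, and 5 without male rat 7. Lep, which encodes leptin, the fat-derived signal of energy stores, was at 763, 1124 and 1239 CPM in males and 219, 504 and 608 CPM in females. The groups did not overlap, and female rat 4 was the lowest (log2 1.201 ± 0.22, adjusted p = 0.00455). Nampt, an enzyme of NAD synthesis that is also secreted, was at 78.5 to 136 CPM in males and 226 to 757 CPM in females (log2 -1.88 ± 0.29, adjusted p = 0.0019). The differences of Adipoq (log2 -0.08 ± 0.17), Retn (0.27 ± 0.26) and Cfd (-0.65 ± 0.25) did not pass the test. The adipocyte transcription factors Pparg (log2 0.11 ± 0.21, adjusted p = 0.767) and Cebpa (log2 -0.0035 ± 0.21, adjusted p = 0.993) did not pass it either. In the thermogenic list, 3 of 13 tested genes were called higher in females (5.22% over all genes) and 1 higher in males (6.19%). The latter count was 0 without female rat 6, 8, 10 or 12 or male rat 3, 5 or 9, 2 without female rat 2 or male rat 11, and 3 without male rat 1. The list's median was -0.43, and it was 0.16 without female rat 4 and 0.48 without female rats 4 and 8, which held most of the Ucp1 reads. Kcnk3, a potassium channel of brown and beige adipocytes, was at 41.8 to 204 CPM in males and 272 to 743 CPM in females (log2 -2.28 ± 0.40, adjusted p = 0.00365). Ucp1, at 0 in every male, was at 0, 7.53 and 383 CPM in females (lowest, median, highest); it did not pass the filter on low counts and has no test.

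Steroid genes included some of the widest gaps. Sult1e1, the estrogen sulfotransferase, was at 1.90, 31.5 and 87.0 CPM in males and at 0 in all 6 females. The male mean was at least 64.8-fold higher than 3 counts in the shallowest female library (adjusted p = 0.00468). Star, which carries cholesterol into mitochondria for steroid synthesis, was at 1.18, 4.36 and 22.6 CPM in males and 120.5, 281.5 and 380.0 CPM in females (log2 -5.20 ± 0.57, adjusted p = 0.000261). The highest male was rat 1, and the difference was -5.99 without it. Srd5a1, a steroid reductase, was at 3.09 to 4.18 CPM in males and 5.69 to 10.6 CPM in females (log2 -1.02 ± 0.19). Of 19 tested steroid genes, 4 were called in each direction; 2 were higher in males without female rat 2, 4 or 8 or male rat 7 or 9, and 1 without female rats 8 and 10. The estrogen receptor Esr1 did not pass the test (log2 -0.87 ± 0.31, adjusted p = 0.0826).

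Retinoid genes differed in both directions. Bco1, which cleaves beta-carotene to retinal, was at 0 to 0.721 CPM in males and 1.98, 15.5 and 43.2 CPM in females (log2 -6.11 ± 0.74, adjusted p = 0.000473). Aldh1a1, which oxidises retinal to retinoic acid, was at 16.2, 96.7 and 1282 CPM in males and 1.59 to 5.10 CPM in females (log2 6.51 ± 1.08, adjusted p = 0.00292). The highest male was rat 11, and the difference was 4.80 without it (adjusted p = 0.00065). Aldh1a3, of the same step, was at 33.3 to 107 CPM in males and 9.15 to 27.2 CPM in females (log2 2.02 ± 0.28). Of 22 tested retinoid genes, 3 were called higher in males and 4 higher in females, the latter 2 without female rat 6 or 10 or male rat 3, 9 or 11 and 1 without female rat 12 or male rat 5 or without female rats 8 and 10. In the cytochrome P450 and xenobiotic list 5 of 26 were higher in males (8 without male rat 1, and 3 without female rats 4 and 8 or 8 and 10) and 2 higher in females; Cyp2e1 was at 0.617 to 4.11 CPM in males and 8.39 to 76.0 CPM in females (log2 -3.78 ± 0.57), with female rat 4 highest. Igf2, a growth factor, was higher in males (26.7 to 105 CPM against 18.4 to 28.5 CPM, log2 1.73 ± 0.27, adjusted p = 0.00204), with a slight overlap. Igfbp3, a binding protein of insulin-like growth factors, was higher in females (109 to 245 CPM against 254.5 to 540 CPM, log2 -1.36 ± 0.24). Igf1 (log2 0.21 ± 0.21) and Ghr, the growth hormone receptor (log2 0.21 ± 0.17), did not pass the test.

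Other genes with large differences were not on the metabolic lists. Acsbg1, an acyl-CoA synthetase, was at 3.81, 85.4 and 142 CPM in males and 0 to 1.42 CPM in females (log2 7.23 ± 0.85, adjusted p = 0.000428), with male rat 11 highest of the males; its difference was 7.92 without female rat 10. Sult1d1, a sulfotransferase, was at 17 to 65.4 CPM in males and 0.136 to 0.997 CPM in females (log2 5.91 ± 0.45, adjusted p = 3.08e-05). Serpina3n, a secreted protease inhibitor, was at 448, 794 and 1295 CPM in males and 20.4, 46.0 and 87.3 CPM in females (log2 4.14 ± 0.42, adjusted p = 0.000203). For all of these the male values lay above every female value. Adra2c, an alpha-adrenergic receptor, was at 10.7 to 51.3 CPM in males and 0.424 to 3.98 CPM in females (log2 3.93 ± 0.52). Ucma, a matrix protein of cartilage, was at 2.04 to 25.4 CPM in males and 0 to 0.570 CPM in females (log2 5.44 ± 0.78), and Col11a1, a fibrillar collagen, at 5.44 to 27.2 CPM and 0.855 to 3.34 CPM (log2 3.16 ± 0.45).

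The size of the differences of Prom1 and Aldoc rested on 1 library, although both were still called without it. Prom1, a membrane protein of epithelial cells, was at 16.2 to 26.9 CPM in 5 males, at 2747 CPM in male rat 11 and at 7.74 to 15.1 CPM in females. Its log2 difference was 5.32 ± 1.44 with that library and 1.02 without it (adjusted p = 0.00525). Aldoc, an aldolase, was at 84.2 CPM in rat 11 and at most 7.71 CPM in the other males, with 0.953 to 2.97 CPM in females (log2 3.24 ± 0.87, or 1.41 without rat 11). Leaving out any of the 6 females ended both calls, with adjusted p from 0.0519 to 0.0729.

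On the female side, Cpa1, a carboxypeptidase known from the pancreas, was at 0.850, 1.35 and 6.26 CPM in males and 37.8, 96.0 and 162 CPM in females (log2 -5.42 ± 0.49, adjusted p = 8.48e-05), and -6.04 without male rat 1. The pancreatic gene Prss1 was at 0 in all males and at most 0.424 CPM in females. Irf4, a transcription factor of lymphocytes that adipocytes also express, was at 4.70 to 13.3 CPM in males and 60.7, 166 and 529.5 CPM in females (log2 -4.86 ± 0.55, adjusted p = 0.000313), with the highest value in rat 4. Ces2h, a carboxylesterase, had 0.144 to 2.99 CPM in males and 6.16 to 27.2 CPM in females (log2 -3.82 ± 0.51, or -4.45 without male rat 1). Tectb had 0.566 to 8.16 CPM in males and 10.5 to 52.7 CPM in females (log2 -3.40 ± 0.54, or -4.05 without male rat 1), and Elfn1 had 0 to 0.991 CPM and 2.26 to 12.2 CPM (log2 -3.62 ± 0.57).

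Developmental transcription factors differed in both directions. Of 18 tested Hox genes, 6 were called higher in males and 2 higher in females. Hoxc10 was at 0 in 5 males, 2.59 CPM in male rat 11 and 12.1, 18.4 and 20.6 CPM in females; the groups did not overlap (log2 -5.29 ± 0.82, adjusted p = 0.00204). Its neighbour Hoxc9 was at 2.09, 4.05 and 19.7 CPM in males and 19.3, 26.6 and 33.1 CPM in females. Its log2 difference was -1.99 ± 0.44 (adjusted p = 0.012), or -2.70 without male rat 11, the male with the highest value of both genes. These carry the highest paralogue numbers, the most posterior positions in a Hox cluster, among the 8 called genes. The genes higher in males carry lower ones: Hoxa2 (5.17 to 21.8 CPM against 2.58 to 4.84 CPM, log2 1.88 ± 0.34), Hoxb3 (14.8 to 31.6 CPM against 7.50 to 12.1 CPM, log2 1.34 ± 0.21), Hoxc5 (log2 1.02 ± 0.21) and Hoxc4 (log2 0.76 ± 0.23, adjusted p = 0.0474). Hoxb7 was at 4.62, 14.9 and 65.1 CPM in males and 1.98 to 5.16 CPM in females (log2 2.61 ± 0.56), or 1.92 without male rat 11. Hoxb8 was at 0.544, 3.33 and 40.2 CPM in males and 0.543 to 1.94 CPM in females; its difference was 3.41 ± 0.93, and without rat 11 it was 1.73 with an adjusted p of 0.0511. Hoxc4 lost its call without any of 10 of the 12 libraries (all except female rat 2 and male rat 11) and Hoxb8 without any of 6 (female rats 2, 6, 8, 10 and 12, and male rat 11), with adjusted p up to 0.0982. The numbers of called Hox genes were 3 higher in males and 3 higher in females without female rats 4 and 8, and 3 and 2 without female rats 8 and 10.

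Of 35 tested regional transcription factors, 7 were called higher in males and 4 higher in females; without female rats 4 and 8 these numbers were 4 and 3, and without female rats 8 and 10 they were 3 and 3. Six4, a homeobox factor of muscle precursors, was at 0.408 to 2.27 CPM in males and 4.41 to 26.3 CPM in females (log2 -3.38 ± 0.53). The groups did not overlap for this gene. Sox9, a factor of cartilage and of adipocyte precursors, was at 9.88, 14.8 and 25.2 CPM in males and 0.159, 1.11 and 2.84 CPM in females (log2 3.50 ± 0.43, adjusted p = 0.000473). Hlx (log2 0.96 ± 0.16) and Tbx2 (log2 0.82 ± 0.18) were also higher in males without overlap, and Meox2 was higher with overlap (log2 0.63 ± 0.15).

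Tcf21, a factor of visceral fat precursors, was at 25.2, 38.0 and 71.8 CPM in males and 1.13, 14.2 and 22.6 CPM in females. The groups did not overlap (log2 1.59 ± 0.46, adjusted p = 0.0397). Tbx18, known from the epicardium and other mesenchyme, was at 4.96, 7.34 and 27.9 CPM in males, with rat 1 highest, and 27.2 to 34.6 CPM in females (log2 -1.42 ± 0.37, adjusted p = 0.0251). The calls of Tcf21, Tbx18, Meox1 (log2 1.69 ± 0.44) and Nr2f2 (log2 0.64 ± 0.17) depended on single libraries. Tcf21 lost its call without female rat 2, 4 or 10 or male rat 3, 5, 7 or 9, Tbx18 without female rat 8 or male rat 5 or 9, Meox1 without female rat 6 or 8 or male rat 9, and Nr2f2 without female rat 4, 8 or 12 or male rat 3, 5 or 9. The adjusted p in these fits was between 0.0509 and 0.0807. Wt1, a factor of visceral mesothelium and visceral fat precursors, did not pass the test (32.5 to 71.2 CPM in males, 9.48 to 68.3 CPM in females, log2 0.37 ± 0.42, adjusted p = 0.611), with female rats 4 and 8 lowest. Nr2f1 did not pass it either (log2 0.15 ± 0.23). Tbx15, a factor of subcutaneous and brown fat, was at 0 in every male and at 4.92 CPM in female rat 8, against 0 to 0.142 CPM in the other females, and has no test.

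**Figure D4:**
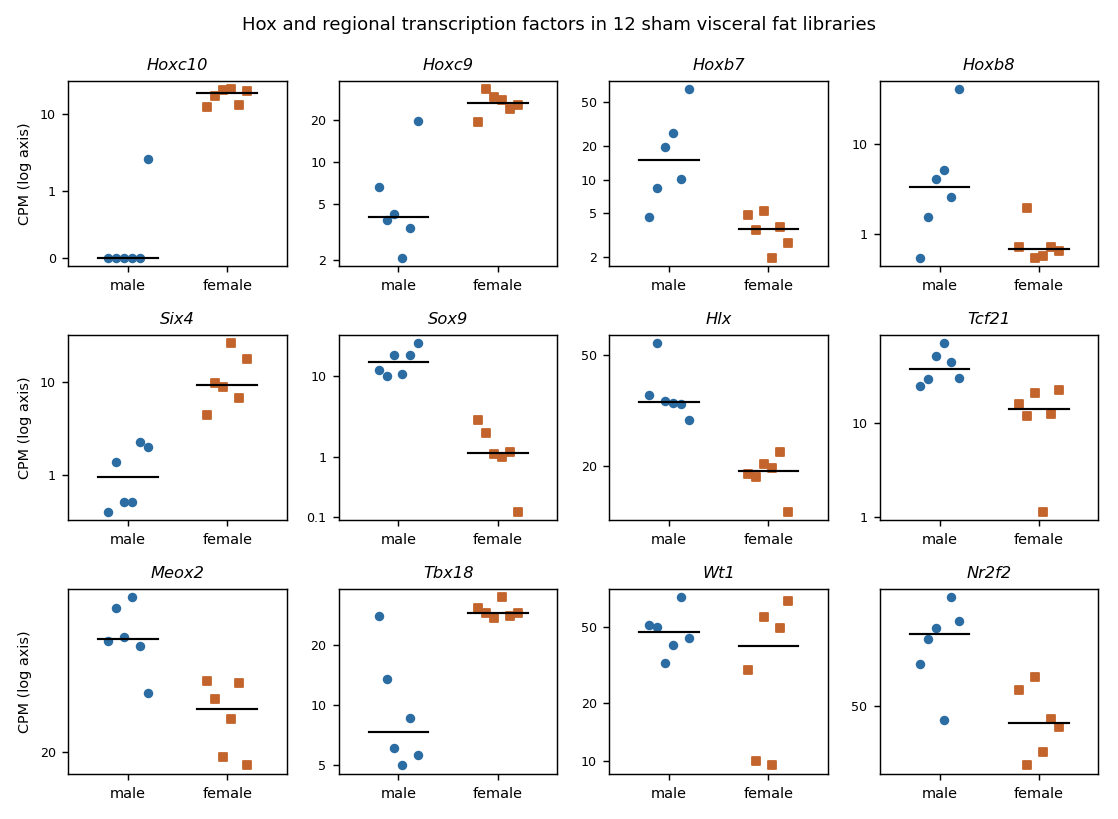
CPM of 12 Hox and regional transcription factor genes in sham VAT; each point is 1 library (male circles, female squares, n = 6 each), the line is the group's median and axes are logarithmic, with a linear stretch down to 0 where a value lies below 0.3 CPM. Hoxc10 and Six4 are higher in females and Sox9, Hlx and Tcf21 higher in males, each without overlap; male rat 11 (the rightmost circle) is the highest male for Hoxc10, Hoxc9, Hoxb7 and Hoxb8.

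Lists of signalling pathways that shape adipose precursors were read against the share of all genes called, 6.19% higher in males and 5.22% higher in females. In the Wnt list, 7 of 36 tested genes were called higher in males and 3 higher in females. Frzb, a secreted Wnt antagonist, was at 98.1, 177 and 253 CPM in males and 20.4, 30.5 and 42.8 CPM in females (log2 2.49 ± 0.23, adjusted p = 8.48e-05). Rspo3, which amplifies Wnt signals, was at 2.58 to 17.8 CPM in males and 1.58 to 5.26 CPM in females (log2 1.80 ± 0.39), and the receptor Fzd6 had a log2 difference of 0.83 ± 0.15. Dkk2, another secreted Wnt regulator, was higher in females (log2 -1.23 ± 0.29). Without female rats 4 and 8 the Wnt list had 2 called genes in each direction, and without a single library it had 3 or 4 higher in males in 8 of the 12 fits (all except those without female rat 6 or male rat 1, 7 or 11). The count higher in females was 1 without female rat 6, 10 or 12 or male rat 5, and 2 without any other single library. Without female rats 8 and 10 the list had 2 higher in males and 1 higher in females.

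In the BMP, TGF-beta and activin list, 3 of 39 tested genes were called higher in males, a share near that of all genes (6.19%), and 4 higher in females. The first count was 1 without male rat 5 or 9, without female rats 4 and 8 and without female rats 8 and 10. Gdf10, a secreted ligand of this family, was at 39.7, 71.1 and 104 CPM in males and 5.54, 10.3 and 18.6 CPM in females (log2 2.74 ± 0.30, adjusted p = 0.000261). Bmp3, another ligand, was at 1.18, 3.11 and 5.40 CPM in males and 7.91, 43.3 and 64.3 CPM in females (log2 -3.69 ± 0.50, adjusted p = 0.000955). The ligands thus differed in opposite directions, each without overlap. Acvr1c, an activin-type receptor of adipocytes, was at 19.9 to 38.6 CPM in males and 44.1 to 71.9 CPM in females (log2 -0.98 ± 0.17, adjusted p = 0.00399). Fgf10, a growth factor for preadipocytes, was at 22.2 to 28.6 CPM in males and 40.5 to 73.8 CPM in females (log2 -1.17 ± 0.15, adjusted p = 0.000645). Gli1, a target of hedgehog signals, was higher in males with overlap (log2 1.36 ± 0.32). In the list of FGF and hedgehog pathways, 3 of 25 tested genes were called higher in males, against 6.19% of all genes. In that list 1 was called higher in females, a share below the 5.22% of all genes. Heyl, a target of Notch signals, was at 45.6, 74.3 and 90.5 CPM in males and 12.9, 19.4 and 24.1 CPM in females (log2 1.93 ± 0.19, adjusted p = 0.000162). In the Notch list, 2 of 18 tested genes, Heyl among them, were called higher in males, against 6.19% of all genes. In the opposite direction 1 was called, a share near the 5.22% of all genes. Id4, an inhibitor of helix-loop-helix factors, was at 25.6 to 39.97 CPM in males and 9.50 to 12.4 CPM in females (log2 1.58 ± 0.14, adjusted p = 8.48e-05).

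In the axon guidance list, 4 of 28 tested genes were called higher in males, against 6.19% of all genes, and 1 higher in females, a share below the 5.22% of all genes. The latter count was 2 without female rat 4, 10 or 12 or male rat 3, 5, 9 or 11, and 3 without male rat 1 or 7. The secreted guidance protein Slit2 was at 25.2 to 65.8 CPM in males and 5.80 to 17.6 CPM in females (log2 2.04 ± 0.27, adjusted p = 0.000725), and Ntn4 at 15.9 to 43.9 CPM and 7.21 to 12.5 CPM (log2 1.58 ± 0.23). Of 29 collagen and matrix genes, 4 were higher in males (2 without female rat 8 or without female rats 4 and 8, and 1 without female rats 8 and 10) and 1 higher in females (2 without male rat 1), again a share below that of all genes. Ccn2, a matricellular protein, was at 43.7 to 62.03 CPM in males and 15.3 to 30.1 CPM in females (log2 1.23 ± 0.17, adjusted p = 0.00108). Thbs2, also matricellular, was at 22.5 to 68.7 CPM in males and 92.3 to 410 CPM in females (log2 -1.90 ± 0.37). Among progenitor and fibroblast markers 3 of 24 were higher in males, against 6.19% of all genes, with Cd9 at 1.52 ± 0.20 and Mfap5 at 1.32 ± 0.33. In that list 1 was higher in females, a share below the 5.22% of all genes. The first count was 1 without female rats 4 and 8 and without female rats 8 and 10, and the second was 0 without female rat 2, 6, 10 or 12 or male rat 1, 3, 5 or 11.

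Markers of other cell types were examined beside these results. In the smooth muscle and pericyte list, 4 of 14 tested genes were called, all higher in males (2 without female rats 4 and 8). Acta2, smooth muscle actin, was at 81.6, 117 and 128 CPM in males and 52.9, 56.2 and 63.3 CPM in females (log2 0.99 ± 0.11, adjusted p = 0.000313), and Lmod1 had a log2 difference of 1.32 ± 0.21. In the endothelium list, 5 of 22 tested genes were called, all higher in males, with Pecam1 at 130.4 to 192 CPM in males and 98.8 to 129.8 CPM in females (log2 0.56 ± 0.12, adjusted p = 0.0133). Without female rats 4 and 8 the endothelial count was 0 higher in males and 1 higher in females, and without female rats 8 and 10 it was 1 and 0; it was 2 higher in males without female rat 4 or 12 or male rat 3 or 5, 3 without female rat 2 or 8 or male rat 7 or 9, and at most 6 without any other library. In the interferon response list 5 of 26 were called higher in males, among them the chemokine gene Cxcl9 (log2 0.82 ± 0.21, adjusted p = 0.0219), and none were called without female rats 4 and 8 or without female rats 8 and 10. That count was 1 without female rat 8, 2 without female rat 4 or 6 or male rat 9, 3 without female rat 12 or male rat 3 or 7, and 4 to 7 without any other library.

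The summed levels of marker lists gave the following ranges. The 20 measured genes of testis, epididymis and male glands summed to 0.408, 20.2 and 2793 CPM in males (lowest, median, highest) and to 0 to 0.853 CPM in females; none passed the filter, and male rat 11 was the highest. The 19 measured genes of ovary, oviduct and uterus summed to 23.4, 47.3 and 664 CPM in males, with male rat 11 the highest. In females they summed to 150, 310 and 398 CPM. Star was the 1 called gene (2 were called without male rat 7), and on this scale it was at 119.6 to 379.4 CPM in females. Cyp11a1, of the same list, was at 8.47 to 20.2 CPM in males and 10.1 to 16.7 CPM in females. The 15 genes of pancreas, kidney and gut summed to 3.25 to 11.6 CPM in males and 43.5 to 164 CPM in females, with Cpa1 the 1 called gene. The 11 measured mesothelial genes summed to 118.5 to 679 CPM in males and 133 to 937 CPM in females, and none of the 10 tested was called (2 were, higher in females, without male rat 1); Msln and Krt19 were detected in both groups. The 23 measured lymphocyte genes summed to 84.4 to 156 CPM in males and 91.7 to 608 CPM in females, with female rat 10 highest and 1 gene called, higher in males (none without female rats 4 and 8). The 23 measured skeletal muscle genes summed to 340 to 518 CPM in males and 357 to 1839 CPM in females, with female rat 8 highest and none called (2 were, higher in males, without that library). The part of these tissues in the differences above was not tested, beyond the values without male rat 11 and without female rats 4, 8 and 10.

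The same comparison was made in VAT of PCB 52 rats, which shares no sample with the sham comparison (4 males against 6 females). Male rat 13 was left out, as an earlier account reports missing reads on most genes of a numbered chromosome and of X. With that library 925 genes were called. Of the 5 libraries labelled male, 4 held over 20 reads on the 3 Y-linked genes, and the lowest held 0. The rat number of the lowest is not given here. All 6 female libraries held 0. Of 10910 genes tested, 844 (7.74%) were called, 373 (3.42%) higher in males and 471 (4.32%) higher in females. Without single libraries the count was 408 (male rat 23), 434 (male rat 19), 446 (male rat 15), 553 (female rat 16) or 1325 (female rat 20). Of the 1237 genes called in sham VAT, 1227 were tested in PCB 52 VAT; 1108 of these (90.3%) had a difference in the same direction, against 58.8% of the 10755 genes tested in both. In all, 396 were called in both in the same direction, which is 32.3% of the sham calls and 46.9% of the PCB 52 calls, and 0 were called in opposite directions.

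Fat synthesis genes were again higher in females: 12 of 21 lipogenic genes were called higher in females (median -1.30), Fasn was at 1681 to 4941 CPM in males and 3857 to 26960 CPM in females (log2 -2.57 ± 0.49, adjusted p = 0.00847), and Me1 at 114 to 439.9 CPM and 381 to 4533 CPM (log2 -3.67 ± 0.63, adjusted p = 0.00444). Hoxc10 was at 0 to 0.127 CPM in PCB 52 males and 21.5 to 27.9 CPM in PCB 52 females. Sox9 (log2 3.21 ± 0.27), Frzb (2.24 ± 0.22), Gdf10 (2.37 ± 0.24) and Heyl (1.94 ± 0.14) were called higher in males, as in sham VAT, with adjusted p from 2.21e-05 to 0.000166 by edgeR. For other genes the PCB 52 values were smaller. Lep had a log2 difference of 0.65 ± 0.20 (adjusted p = 0.0644), Pck1 of -0.44 ± 0.23, Lpin1 of -0.25 ± 0.23, Ehhadh of -0.20 ± 0.21 and Ppargc1a of -0.69 ± 0.34, and none of these passed the test. Sult1e1 was at 0.283 to 5.95 CPM in PCB 52 males and at most 0.147 CPM in PCB 52 females.

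The difference between the exposures was then tested directly. No gene of 11364 passed (0 called by edgeR, 1547 at an unadjusted p under 0.05, and 60 called by DESeq2). The gene with the smallest p was Acvr1c, with a change of 1.5 ± 0.27 in the log2 difference (adjusted p = 0.206): it was higher in sham females than in sham males, and at 48.4 to 77.4 CPM in PCB 52 males against 31.3 to 59.2 CPM in PCB 52 females. The values for Lpin1 (1.58 ± 0.43, adjusted p = 0.226), Ehhadh (1.47 ± 0.38, adjusted p = 0.226), Irf4 (3.33 ± 0.78, adjusted p = 0.226) and Star (2.32 ± 0.71, adjusted p = 0.235) did not pass.

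**Figure D5:**
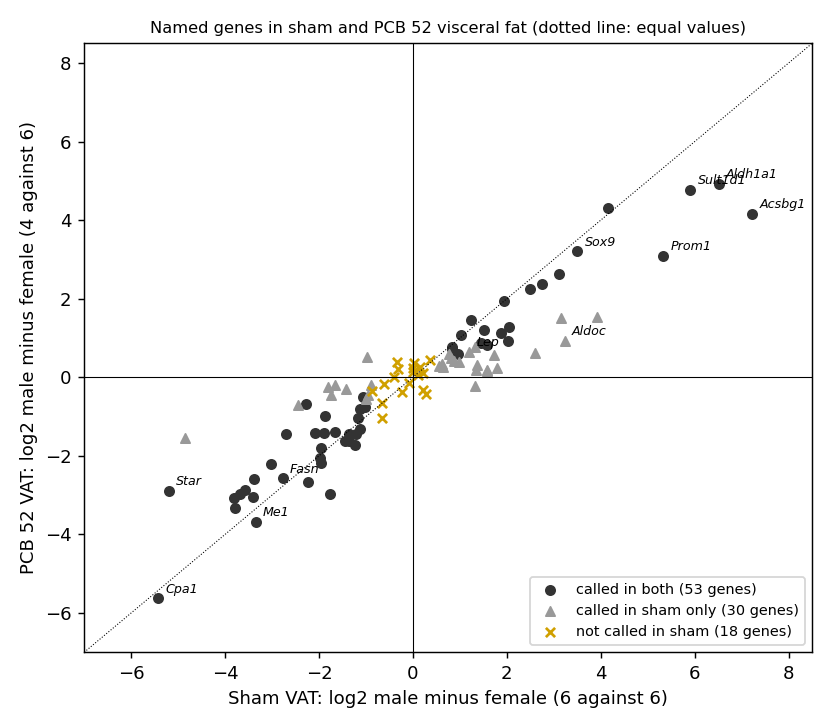
Log2 difference (male minus female) of 101 named genes in sham VAT (x axis, 6 against 6) and PCB 52 VAT (y axis, 4 against 6), which share no sample; genes with every library of a group at or under 0.528 CPM are left out, and the dotted line marks equal values. Circles are the 53 genes called in both, triangles the 30 called in sham VAT but not in PCB 52 VAT, and crosses the 18 not called in sham VAT; 81 of the 83 called in sham VAT lie on the same side of 0 in both.

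Brown and subcutaneous fat of the sham rats were then compared with VAT. The test was the depot's male minus female log2 value less that of VAT, so a positive value means a difference less negative, or more positive, than in VAT. Against BAT, 233 of 11189 genes (2.08%) were called, 133 (1.19%) positive and 100 (0.894%) negative. Heyl was at 17.8 to 26.6 CPM in male and 20.9 to 30.1 CPM in female BAT (difference of the differences -2.24 ± 0.23, adjusted p = 1.15e-05), and Lingo4, a membrane protein, at 51.3 to 75.4 CPM and 47.4 to 95.7 CPM (2.98 ± 0.38, adjusted p = 0.000126), where in VAT it was at 2.12 to 5.62 CPM in males and 11.7 to 50.6 CPM in females. For these genes the groups overlapped in BAT and did not overlap in VAT. Of 21 lipogenic genes 4 were called against BAT (9 with the replicate block, which pairs libraries of the same rat number), all positive, among them Fasn (2.61 ± 0.48, adjusted p = 0.00431) and Me1 (3.19 ± 0.53, adjusted p = 0.00211). Fasn was at 6643 to 17390 CPM in male and 8453 to 21710 CPM in female BAT.

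Against SAT (6 males and 5 females), 1277 of 11684 genes (10.9%) were called, 594 (5.08%) positive and 683 (5.85%) negative. With the replicate block the count was 360, and 352 of these were among the 1277. The direction of the lipogenic genes differed between these depots. Fasn was at 4070 to 26990 CPM in male and 402 to 2463 CPM in female SAT, the reverse order of VAT, with a difference of the differences of 5.83 ± 0.79 (adjusted p = 0.000197). Of 21 lipogenic genes, 11 were called against SAT, and 11 of 13 triglyceride synthesis genes, all positive. With the replicate block these counts were 9 and 2. The shift was not limited to fat synthesis. Of 23 genes of lipolysis and the lipid droplet 14 were called, and of 26 of fatty acid oxidation 12, also all positive (2 and 8 with the replicate block). The 23 lipolysis and lipid droplet genes summed to 4944 to 16520 CPM in male and 1741 to 4914 CPM in female SAT. The share of adipocytes in the SAT libraries was not tested. Markers of other cells differed between the SAT groups as well. The 17 measured mammary and epithelial genes summed to 13, 86050 and 290800 CPM in male SAT (lowest, median, highest; lowest in rat 9 and highest in rat 1) and 5823 to 28020 CPM in female SAT, against at most 902 CPM in VAT, and 2 of the 16 tested were called below 0 (median -3.25). Of 9 mast cell genes 6 were called above 0 and 1 below, or 3 and 0 with the replicate block. Of 35 cytosolic ribosome genes 26 were called below 0 (median -1.87); their sum was 20290 to 28590 CPM in male and 35510 to 263000 CPM in female SAT, highest in rat 8. Without that library 13 were called, and with the replicate block none. The part of these transcripts in the SAT differences was not tested; without female SAT rat 8 the lipogenic and triglyceride counts were both 11. Acsbg1, high in male VAT, was at 0.153 to 0.969 CPM in male and 1.65 to 12.0 CPM in female SAT (-10.6 ± 1.13, adjusted p = 1.82e-05). Sult1d1 was at 1.48 to 8.72 CPM in male and 6.74 to 16.5 CPM in female SAT (-7.005 ± 0.70, adjusted p = 1.28e-05). Sertad4 was at 15.8 to 28.7 CPM in male and 37.9 to 95.9 CPM in female SAT, and at 12.5 to 21.6 CPM in male and 6.67 to 10.97 CPM in female VAT (-2.55 ± 0.31, adjusted p = 0.000119).

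Other genes with wide gaps in VAT were read in both other depots. Hoxc10 was at 0 in all 12 BAT libraries, and in SAT it was at 3.18 to 23.7 CPM in males and 7.20 to 14.6 CPM in females, where the groups overlapped. Cpa1 was higher in females in SAT as well (23.8 to 145 CPM against 3.04 to 16.4 CPM in males), and its difference from VAT was 2.998 ± 0.77 (adjusted p = 0.0178). For Frzb the change from VAT to SAT in the male minus female value did not pass the test (-0.36 ± 0.62, adjusted p = 0.737), nor did it for Serpina3n (-0.33 ± 0.80, adjusted p = 0.823). Against BAT the change passed for Frzb (-2.345, adjusted p = 0.000804 by edgeR) but not for Serpina3n (-2.905, adjusted p = 0.0675). Star, at 120.5 to 380.0 CPM in female VAT, was at 3.36 to 22.4 CPM in male and 6.76 to 19.4 CPM in female BAT, and at 5.24 to 47.6 CPM in male and 12.2 to 18.1 CPM in female SAT. Its difference from VAT was 5.24 ± 0.74 in BAT (adjusted p = 0.000621) and 5.87 ± 0.86 in SAT (adjusted p = 0.000386).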

How the data were processed

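Each sex and depot has 1 deposited table of raw counts over 15319 genes. The female VAT table was entered as estimated counts as deposited because of 5 spreadsheet lines under its genes; these were dropped, and the counts of its genes are whole numbers. Per the submitters' processing notes, FastQC, HISAT2 and the build rn6 were used; for their versions, the counting program, annotation and strand setting the sources used here give nothing, so overlapping and antisense genes have uncertain counts. About 100 mg of tissue was used, samples with an RNA integrity number below 8 were dropped, and poly(A) capture or rRNA removal was used, per the labels' protocols. NCBI gene numbers were matched to a RefSeq table (15230 matched, 89 not) for symbols and chromosomes, and promoter coordinates are of GRCr8. Genes on numbered chromosomes entered edgeR 4.0.16 (R 4.3.3; TMM, the default expression filter, robust quasi-likelihood F test, Benjamini-Hochberg adjustment, threshold 0.05); the tests were checked on simulated data. No 2 libraries of a group held identical counts, and the lowest chi-square per gene between libraries of a group was 12.1. Alternatives were DESeq2 1.42.0, limma 3.58.1 voom, other scaling and filters, tests against 1.5-fold, left-out libraries and, between depots, the replicate block.

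The male and female groups, the 46 gene lists and the named genes were chosen with earlier results of these data known. By the naming rule, text genes are the 12 higher and 12 lower with the largest differences at 5 CPM or more and no overlap, up to 4 called genes of a list, every called Hox gene and regional factor, fixed genes, and the 3 smallest p-values of each difference between conditions; 110 of these are printed, and some others are not reported here. Only the replicate block read equal rat numbers in different depots as the same rat, which the labels do not state. The other depot tests, which gave the p-values of single genes, had no term for the rat and treated its libraries as independent. Deviations of VAT and BAT libraries of the same number correlated with a median r of 0.113 (other numbers -0.0403), and of VAT and SAT with 0.159 (other numbers -0.0438).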

Additional observations from a re-analysis of the deposited data

Results flagged for a closer look

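Of 220 groups of 6 libraries examined for the named genes, 25 held 1 library whose distance to the nearest other library was over 0.625 of the group's range. Chance flags about 1 in 20 groups of normally distributed values. The rule was applied to CPM without a log, for which that share is not known. The genes of 1 library are not independent of each other. The library of male rat 11 stood far above the other males: Aldh1a1 was at 1282 CPM there, Sult1d1 at 65.4 CPM, Prom1 at 2747 CPM, Aldoc at 84.2 CPM, Hoxc10 at 2.59 CPM, Hoxb7 at 65.1 CPM, Hoxc9 at 19.7 CPM and Hoxb8 at 40.2 CPM. Male rat 1 stood above the other males, towards the females, for Cpa1 (6.26 CPM), Star (22.6 CPM), Ces2h (2.99 CPM), Gys2 (22.98 CPM), Ehhadh (83.2 CPM), Ndufs1 (232 CPM), Mccc1 (70.2 CPM), Dbt (179 CPM) and Tbx18 (27.9 CPM). Male rat 3 stood apart for Hlx (54.8 CPM).

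Among the females, rat 4 stood apart for Cyp2e1 (76.0 CPM), Nampt (757 CPM), Hoxb8 (1.94 CPM), Pnpla2 (24440 CPM) and, as the lowest, Igf1 (179 CPM). Rat 8 stood apart for Tbx15 (4.92 CPM), and rat 2 for Acly (6296 CPM).

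A direct edgeR test of the male minus female difference between depots passed at an adjusted p under 0.05 for the genes below. They are among those whose tested change between depots is given in the text. Against VAT, the log2 difference in BAT was changed by -2.24 for Heyl, -2.345 for Frzb, -7.85 for Acsbg1, 2.98 for Lingo4, 2.61 for Fasn, 3.19 for Me1 and 5.24 for Star. In SAT it was changed by -10.6 for Acsbg1, -7.005 for Sult1d1, -2.55 for Sertad4, 5.83 for Fasn, 3.75 for Me1, 2.998 for Cpa1 and 5.87 for Star.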

How the results depend on the processing

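None of the 1237 called genes was called in the opposite direction in any of the other fits of sham VAT. The count of called genes was 1852 with DESeq2, 1107 with limma voom, 1233 with DESeq2 size factors, 1182 with no filter and 1163 with a filter of 5 CPM. It was 528 without female rats 4 and 8, 651 without female rats 8 and 10 (chosen after seeing the data) and 186 when tested against 1.5-fold, and it ranged from 797 to 1571 on leaving out single libraries. In PCB 52 VAT the count was 1441 with DESeq2 and ranged from 408 to 1325 on leaving out single libraries. DESeq2 called 60 genes for the difference between exposures and 471 for the difference between VAT and BAT. With the replicate block the count was 255 against BAT and 360 against SAT; paired by rat number, 9 of 12 VAT and BAT pairs and 7 of 11 VAT and SAT pairs had a correlation over 0.1, so the pairing is a hint from the data.

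Of 90 called genes named in the text, 82 were called in all 12 leave-one-out fits. The sign changed for genes that did not pass the test. Without male rat 11, Adipoq was at 0.023 and Cebpa at 0.10; without female rats 4 and 8, Cebpa was at 0.17, Irs1 at -0.048 and Wt1 at -0.075; without female rats 8 and 10, Pparg was at -0.021, Irs1 at -0.083 and Nr2f1 at -0.071; with limma voom, Lpl was at -0.0099 and Irs1 at -0.026. On leaving out single libraries the log2 value ranged from -0.15 to 0.023 for Adipoq, from -0.12 to 0.12 for Cebpa, from -0.049 to 0.090 for Lpl and from -0.14 to 0.17 for Irs1. The depth limits genes near 3 counts per library, such as Sult1e1 in females and Hoxc10 in males.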

Other observations

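In the list of cholesterol synthesis and handling, 4 of 23 tested genes were called higher in females (8 without male rat 11) and none higher in males. The list's median was -0.05, -0.40 without male rat 11 and -0.23 without female rats 4 and 8. Hmgcs1, an early enzyme of cholesterol synthesis, was at 129.5, 141 and 216 CPM in males and 213, 326 and 389 CPM in females (log2 -1.01 ± 0.18, adjusted p = 0.00361 by edgeR). In the list of glucocorticoid response, 5 of 18 tested genes were called higher in females and 1 higher in males, with a median of -0.23; the female count was 2 without female rat 4, 6 or 12 or male rat 5 or 9, 3 without female rat 8 or 10 or male rat 1 or 11, 1 without female rats 4 and 8 and 2 without female rats 8 and 10. None of 35 ribosomal protein genes was called, although all 35 had a difference above 0 (median 0.29, or -0.15 without male rat 7), and their summed level in male rat 7 was 49220 CPM against at most 20940 CPM in the female libraries. Of 16 circadian clock genes 1 was called (6.25%, against 11.4% of all genes), higher in females (none without female rat 4, 6, 8 or 12 or male rat 3, 5, 9 or 11). Of 18 heat shock and unfolded protein genes 1 was called (5.56%, against 11.4% of all genes), higher in females (none without female rat 2, 4 or 12 or male rat 3, 5 or 9). None of 19 cell cycle genes was called (1 was, higher in females, without female rat 10).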
